A study of Mus musculus with 14 samples.

Results

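The nuclear genes of the mitochondrial respiratory chain were followed across 7 groups of mouse pluripotent cells with 2 RNA-seq libraries each. A row of the count table was taken as a respiratory chain gene if its symbol began with Nduf, Uqcr or Atp5, began with Cox followed by a digit from 4 to 8, or was Sdha, Sdhb, Sdhc or Sdhd. This rule found 92 of 24015 rows, of which 89 passed the filter on low counts and were tested among 16247 genes. The groups were embryonic stem cells (ESC, genotype CD1/JF1, grown on feeder cells with LIF in GMEM with 15% serum replacement, KSR) and epiblast stem cells (EpiSC, line 9FEpi, CD1/JF1, grown in KO-DMEM with 20% KSR and 10 ng/ml bFGF). MM401 day 3 and MM401 P2 were EpiSC (CD1/JF1) given LIF and 100 µM MM401 for 3 days, or for 6 days up to passage 2. Reverted cells (rES, genotype CD1-deltaTSIX/JF1) were sampled at passage 6 and at passage 30 with MM401, which was lowered to 25 µM after passage 3, and at passage 30 without MM401. MM401 inhibits the histone methyltransferase Mll1 (Kmt2a). LIF and the inhibitor arrived together and cannot be told apart, and neither can the rES genotype and the reverted state. One MM401 P2 library (replicate 2) is titled P2b. Per the series text, each pair of libraries is a biological duplicate.

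The respiratory chain passes electrons from NADH through complex I, or from succinate through complex II, to complex III, cytochrome c and complex IV, which reduces oxygen. Complexes I, III and IV pump protons across the inner mitochondrial membrane, and complex V, the ATP synthase, lets them flow back to make ATP. Some subunits are encoded in mitochondrial DNA and were not analysed here, while the genes described below are encoded in the nucleus and their proteins are imported. Naive pluripotent cells are known to respire as well as to use glycolysis, and primed cells rely more on glycolysis.

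Totals per library were 20831588 to 23677089 counts in ESC, EpiSC and rES. MM401 P2 was deeper, with 74952496 and 80383376, and MM401 day 3 deepest, with 113221270 and 116086115. All 10 naive markers were called higher than in EpiSC in ESC, MM401 day 3, MM401 P2 and rES passages 6 and 30. Summed markers of feeder fibroblasts (20 genes) stood at 20593 and 20291 CPM (counts scaled to the effective library size) in MM401 P2, against 6360 and 6423 in EpiSC, 7400 and 7412 in MM401 day 3 and 2108 and 2125 in rES passage 30. In bulk RNA, fewer cells of a type and less RNA per cell cannot be told apart. CPM were scaled with TMM factors, which were near 1.09 in EpiSC and 0.966 to 1.002 elsewhere. Under total counts the all-gene median log2 fold change against EpiSC was -0.15 in ESC and -0.17 on MM401 day 3, in place of -0.00 and 0.00, so changes below are also read relative to that median.

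Most respiratory chain transcripts are short, and many share sequence with transcripts of other genes. Their median length over annotated coding transcripts was 693.5 nucleotides, against 2131 nucleotides for the genes tested, and 52 of the 92 were under 0.75 kb. The share of 50-base stretches of the main transcript that also occur in transcripts of another gene was at most 1% for 48 genes, over 20% for 21 and over 50% for 6. The 6 were Atp5g2 (100%), Atp5l (84.8%), Atp5h (66.6%), Atp5g1 (66.0%), Atp5o (63.0%) and Cox7c (53.0%). Without the tissue-restricted forms, the median level per kilobase of the main transcript was 103 CPM for genes with at most 1% shared (41 genes) and 106 for those with 1 to 20% (22). It was 48.1 for those with 20 to 50% (15, with Ndufs5 listed at 0) and 24.0 for those over 50% (6). Where a gene has several main transcripts, levels use their median length and shares the shortest of them. The counting of reads with several matches is not stated in the sources, so the levels of these genes are uncertain. For MM401 day 3 against EpiSC and for the withdrawal of MM401, genes with at most 1% shared stretches and the others are also given apart.

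One example is the c ring of ATP synthase, whose subunit is made from Atp5g1 (chromosome 11), Atp5g2 (chromosome 15) and Atp5g3 (chromosome 2). All of them encode the same mature protein with different import signals. Shown are the last 90 coding bases of each gene (GENCODE M21, sense strand, 5′ to 3′, stop codon included), with capitals at positions where the genes differ, because they show how far the genes can be told apart where they encode the shared protein.
Atp5g1: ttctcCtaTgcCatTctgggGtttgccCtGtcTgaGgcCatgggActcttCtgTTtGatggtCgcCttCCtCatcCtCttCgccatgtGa
Atp5g2: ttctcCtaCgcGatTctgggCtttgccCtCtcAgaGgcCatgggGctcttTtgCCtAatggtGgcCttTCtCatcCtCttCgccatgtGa
Atp5g3: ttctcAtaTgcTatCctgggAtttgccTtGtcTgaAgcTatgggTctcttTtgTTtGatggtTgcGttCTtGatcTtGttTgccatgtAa
In this stretch Atp5g1 differed from Atp5g3 at 17 positions (81.1% identity) and Atp5g2 at 23 (74.4%). The recorded level of Atp5g3, which shares 0% of its 50-base stretches with other genes, was 503 CPM per kilobase, against 6.19 for Atp5g1 and 1.96 for Atp5g2. The value of Atp5g1 rests on a median length of 2675.5 nucleotides, raised by a transcript of 4715. Its shared stretches were counted on a shorter transcript with 547 stretches, which would give a higher level per kilobase. Not divided by length, Atp5g3 had 264 to 417 CPM per library and Atp5g1 12.7 to 30.6. Of the stretches of Atp5g1 61.2% occur in the processed pseudogene Gm10039, and of those of Atp5g2 100% in the transcript Gm10175, so the sharing of these genes is not with Atp5g3.

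Of the 3 genes not tested, Cox6a2 and Cox8b, the heart and muscle forms of complex IV subunits, had at most 38 and 11 counts in any library. Ndufs5, an accessory subunit of complex I that all cells with complex I are known to use, was listed at 0 in all 14 libraries. The processed pseudogene BC002163, which holds 41.2% of the 50-base stretches of Ndufs5, had 407 to 3712 counts per library. The 0 of Ndufs5 is not read as a lack of its RNA.

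Levels per kilobase differed between the complexes and between their members. Over the 66 genes outside the tissue-restricted forms whose median and main transcript lengths agreed within 1.5-fold, the mean level over all libraries had a median of 109 CPM per kilobase. The highest were Atp5b (1259 CPM per kilobase) and Atp5a1 (660), which form the catalytic head of ATP synthase, followed by Atp5g3 (503) and Cox4i1 (493), a regulatory subunit of complex IV. The median per kilobase was 240.2 CPM for complex IV (12 genes), 184 for complex V (13), 123 for complex II (2 genes, Sdhb and Sdhd), 102 for complex III (5) and 97.5 for complex I (28). Assembly factors, which help build the complexes and do not stay in them, had a median of 21.6 (6 genes), the highest being Ndufaf7 at 34.7. Within complex I, Ndufa7 was highest at 239 CPM per kilobase, and in complex III Uqcr10 (233) stood above Uqcrb (48.1), of which 43.4% of stretches are shared.

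**Figure D1:**
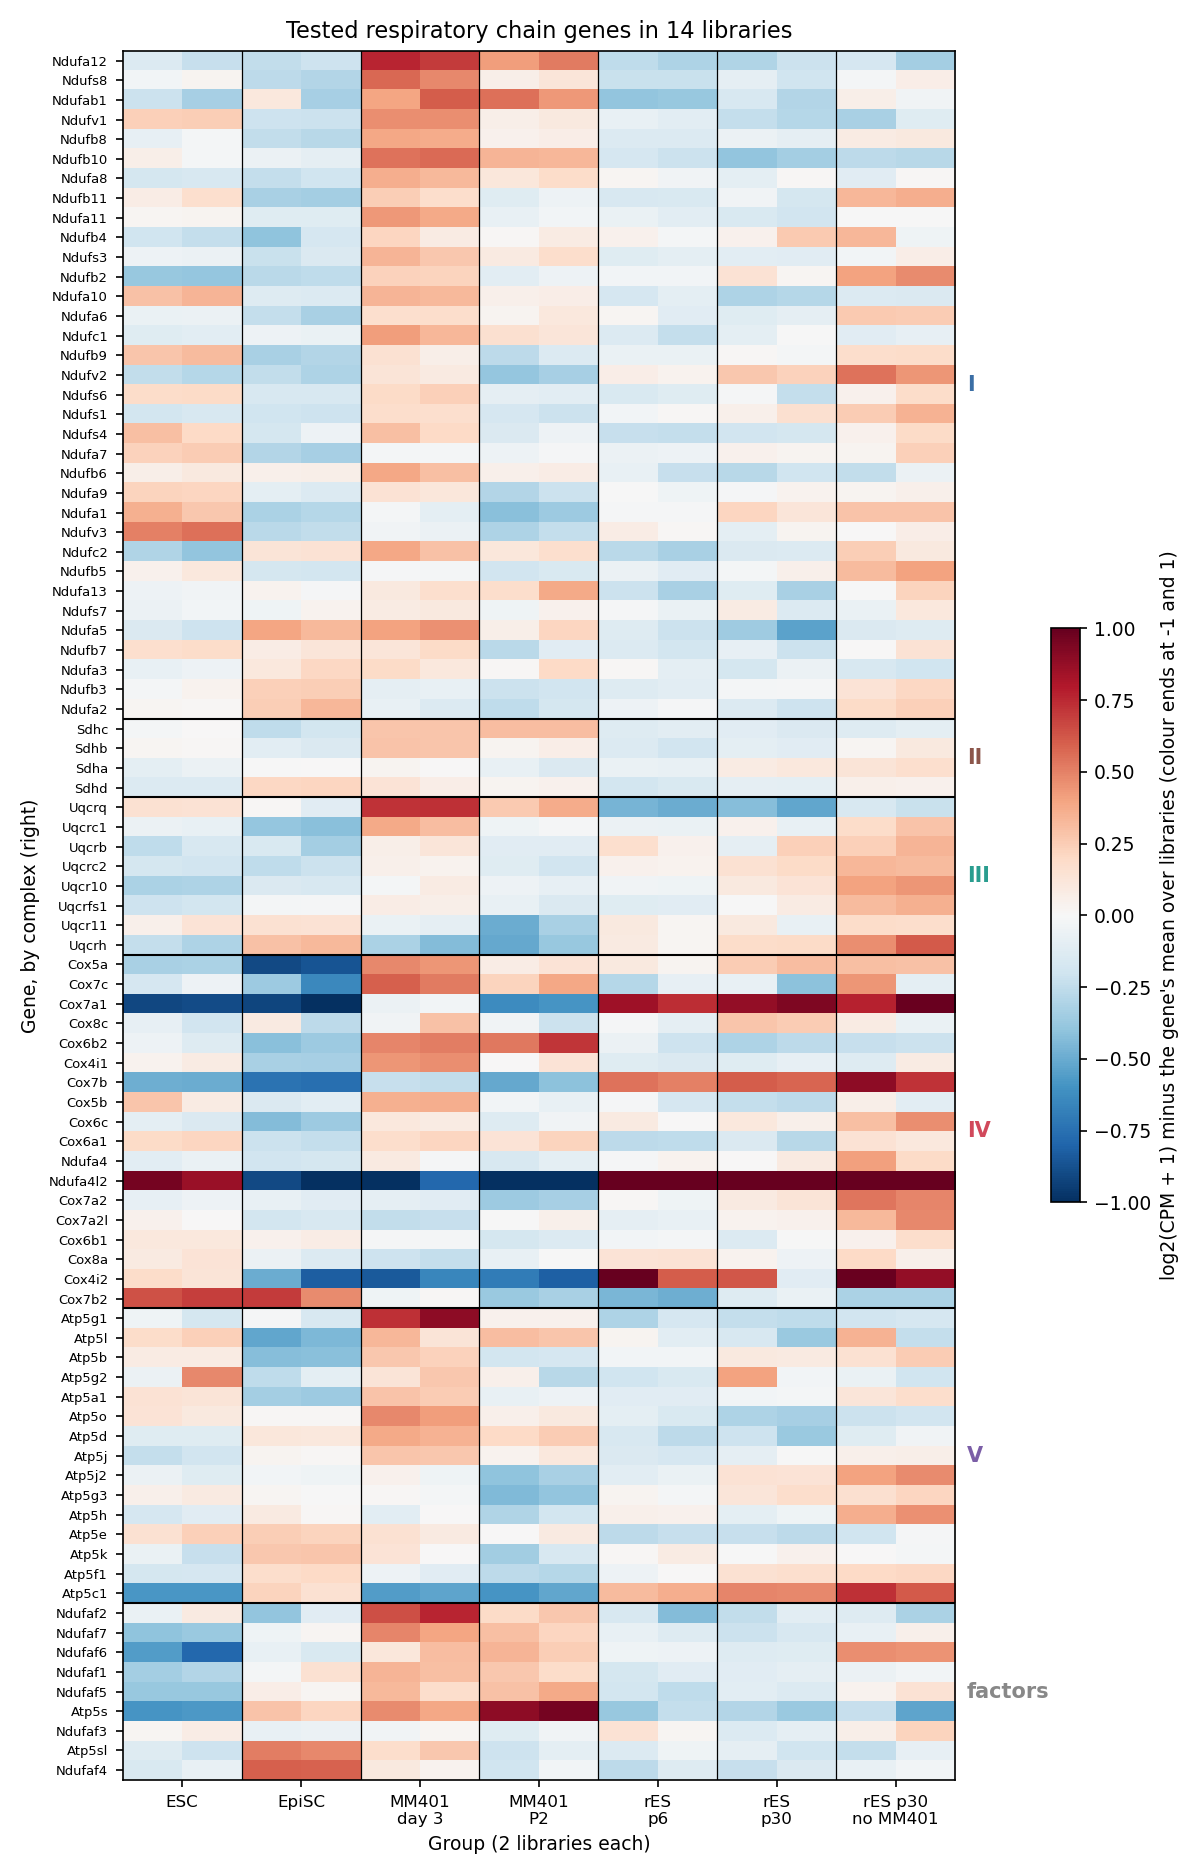
Heat map of the tested respiratory chain genes but 1 (rows, by complex and within it by the log2 fold change of MM401 day 3 against EpiSC) in 14 libraries (columns, 2 per group); colour is log2(CPM + 1) minus the mean of the gene. Rows of complex I are mostly red on MM401 day 3, and Ndufa4l2, Cox7a1 and Cox7b are red in all 6 rES libraries.

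Summed over all 92 genes with TMM scaling, EpiSC had the lowest levels (10645 and 10605 CPM). MM401 day 3 (14247 and 14000) and rES passage 30 without MM401 (13657 and 14150) had the highest. ESC held 12392 and 12438 CPM, MM401 P2 11509 and 11828, rES passage 6 11846 and 11741, and rES passage 30 12417 and 12383. Both libraries of MM401 day 3 and of rES without MM401 lay above all libraries of the other 5 groups. As a share of total counts, the EpiSC libraries (1.165% and 1.159%) lay between those of MM401 P2 (1.132% and 1.173%). The rES passage 6 libraries held 1.187% and 1.176%. The lowest rank of EpiSC thus rests on the TMM scaling. Atp5a1 and Atp5b supplied 29.1% to 35.3% of these sums, so the sums follow complex V more than the number of genes that moved. By gene, 32 of the 89 tested had their highest group mean on MM401 day 3 and 29 in rES passage 30 without MM401. The lowest group mean was in EpiSC for 28 genes and in MM401 P2 for 19, also with TMM scaling.

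The complexes did not keep a fixed ratio. Complex IV summed to 1443 and 1433 CPM in EpiSC and 2155 and 2156 in rES passage 30 without MM401, while complex II, which also belongs to the citric acid cycle, ranged only from 706 to 850 CPM over all libraries. Complex I summed to 2613 and 2615 CPM in EpiSC, 3423 and 3361 on MM401 day 3 and 2810 and 2774 in rES passage 30. The log2 ratio of the summed complex I to complex IV genes was 0.86 in EpiSC, 0.78 in ESC, 0.75 on MM401 day 3 and 0.57 in both rES groups with MM401, with replicates within 0.06 of each other. By these sums the rES groups had less complex I RNA per complex IV RNA than ESC and EpiSC, without overlap between libraries. Complex IV did not rise as a whole, with 7 genes higher and 7 lower in rES passage 30 than in ESC. Cox5a stood at 168 and 170 CPM in ESC and 252 and 263 in rES passage 30, and Cox7b at 94.3 and 93.7 against 202 and 198. The median log2 CPM of complex I minus that of complex IV, without tissue forms, was -0.72 and -0.73 in ESC and -1.02 and -1.03 in rES passage 30. Assembly and other factors, with Atp5s among them, went another way. They summed to 272 and 276 CPM in EpiSC, 198 and 200 in ESC and 211 and 213 in rES passage 30. These sums and ratios are given as descriptions and were not tested, and the sums also rest on the TMM scaling.

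**Figure D2:**
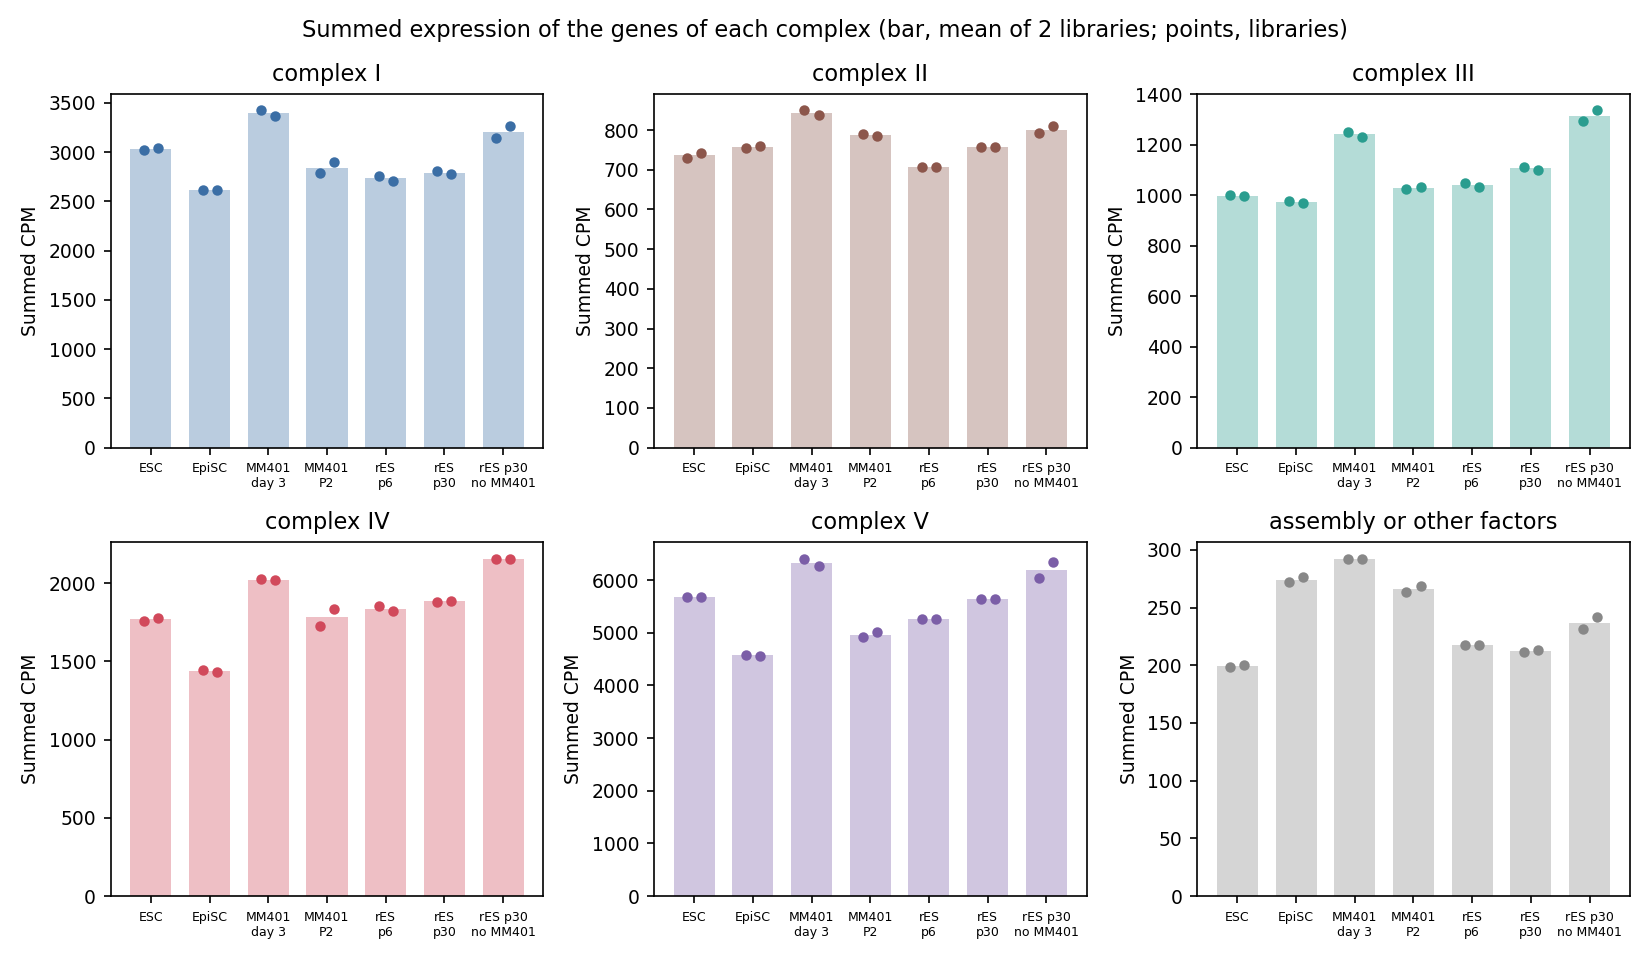
Summed CPM of the genes of each complex and of the assembly or other factors (y axis, from 0) in the 7 groups (x axis). Bars are means of 2 libraries and points the libraries. Complexes I, III, IV and V are high on MM401 day 3 and in rES passage 30 without MM401, while the factors are highest in EpiSC and the MM401 groups.

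After 3 days of LIF and MM401, most respiratory chain genes stood above their EpiSC level. Of the 89 genes 58 rose (65.2%) and 13 fell, where 38.7% and 37.9% of all genes tested did so (76.6% in either direction), at an adjusted p (Benjamini-Hochberg, edgeR quasi-likelihood test) under 0.05. The median log2 fold change was 0.35, against 0.00 for all genes. With total counts 44 rose and 22 fell, and the median was 0.17 against -0.17 for all genes, so the distance between them stayed at 0.34. Among genes with at most 1% shared stretches 27 of 47 rose and 6 fell (median 0.22), and among the others 31 of 42 rose and 7 fell (median 0.42). The libraries of MM401 day 3 were deeper. With all libraries thinned to the depth of the shallowest, 58 of 88 genes rose and 12 fell (36.8% and 37.0% of all genes). The median was then 0.30 against -0.01 for all genes. The day 3 libraries also held 1.9% and 1.68% of the ribosomal precursor Rn45s, against 0.435% and 0.35% in EpiSC, and the part of Rn45s in the result was not tested.

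Complex I rose most evenly, in 28 of 35 genes against 2 that fell (median 0.39). Of its catalytic core 6 of 7 subunits rose, including Ndufv1, which holds the FMN that accepts electrons from NADH. Ndufv1 stood at 149 and 148 CPM in EpiSC and 238 and 238 on day 3, a log2 fold change of 0.68 ± 0.04 (SE, adjusted p = 1.5e-17). Ndufs8 was at 48.4 and 47.5 CPM in EpiSC and at 87.5 and 81.9 on day 3 (0.82 ± 0.05, adjusted p = 1.4e-17). The accessory subunit Ndufa12 rose too, with 17.3 and 17.8 CPM in EpiSC and 35.8 and 34.3 on day 3 (1.00 ± 0.07). For each of these the groups did not overlap. The accessory subunits Ndufa2 (-0.40 ± 0.05) and Ndufb3 (-0.33 ± 0.05) were the ones that fell in complex I.

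Complexes III, IV and V rose less evenly. In complex III, Uqcrc1, a core subunit, rose from 256 and 251 CPM in EpiSC to 435 and 416 (0.75 ± 0.04), and Uqcrq rose by 0.78 ± 0.04. Uqcrh, the hinge protein that contacts cytochrome c1, fell from 114 and 117 CPM to 74.7 and 68.8 (-0.69 ± 0.05, adjusted p = 1.8e-15). In complex IV 10 of 18 rose and 2 fell, Cox7b2 and Cox8a, the latter not called without EpiSC replicate 1 (adjusted p = 0.17) or MM401 day 3 replicate 2 (0.073). The largest rise of any respiratory chain gene was that of Cox5a, a matrix-side subunit, from 112 and 115 CPM to 296 and 287 (1.36 ± 0.04, adjusted p = 4.8e-29), though 32.0% of its stretches also occur in other transcripts, 29.2% in a long noncoding RNA. In complex V the catalytic pair rose, Atp5b from 1774 and 1781 CPM to 2870 and 2801 (0.67 ± 0.03) and Atp5a1 from 1325 and 1308 to 2045 and 2004 (0.62 ± 0.03). The gamma subunit Atp5c1, the rotating stalk inside that head, fell from 202 and 192 CPM to 117 and 120 (-0.73 ± 0.04, adjusted p = 1.4e-19). The delta subunit Atp5d, also of the central stalk, rose with the catalytic pair, from 199 and 198 CPM to 240 and 235 (0.26 ± 0.04), so that 3 of the 5 head and stalk genes rose and 2 fell, Atp5c1 and Atp5e. With total counts Atp5d was not called (0.08, adjusted p = 0.081), and the small fall of Atp5e (-0.11 ± 0.05) was lost without either EpiSC library (adjusted p = 0.15 and 0.069) or without MM401 day 3 replicate 2 (0.22).

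Between day 3 and P2, that is with longer exposure and a passage, the respiratory chain genes went down again. Of 89 genes 65 fell (73.0%) and 4 rose, against 33.3% and 37.5% of all genes (70.8% in either direction), with a median log2 fold change of -0.22 against 0.04. The fold change over all genes had a rho of 0.13 with transcript length, and an offset on the longest transcript left 58 lower and 5 higher and brought the distance to the median of all genes from -0.25 to -0.16. In complex I 29 of 35 fell and 0 rose (1 gene was higher at an unadjusted p under 0.05, and DESeq2 called 0), in complex III 7 of 8 fell and in complex V 11 of 15. Most falls were small, and 4 exceeded 1.5-fold, against 7.96% of all genes. Ndufv2, a core subunit of complex I, fell from 144 and 140 CPM to 100 and 104 (-0.47 ± 0.04), and Atp5b from 2870 and 2801 to 2105 and 2123 (-0.42 ± 0.03). Atp5g1 fell from 27.2 and 30.6 CPM to 16.5 and 16.5 (-0.81 ± 0.07), with the limit on shared sequence given above. The genes that rose were Atp5s (0.52 ± 0.08), Cox7a2l (0.27 ± 0.05), Cox8a (0.19 ± 0.04) and Cox6b2 (0.12 ± 0.05), and the call of Cox6b2 was lost without MM401 P2 replicate 2 (0.02, adjusted p = 0.71) and without either day 3 library (adjusted p = 0.12 and 0.051). All 20 feeder markers rose in the same comparison, from 7400 and 7412 to 20593 and 20291 summed CPM, and their part in the falls was not tested.

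**Figure D3:**
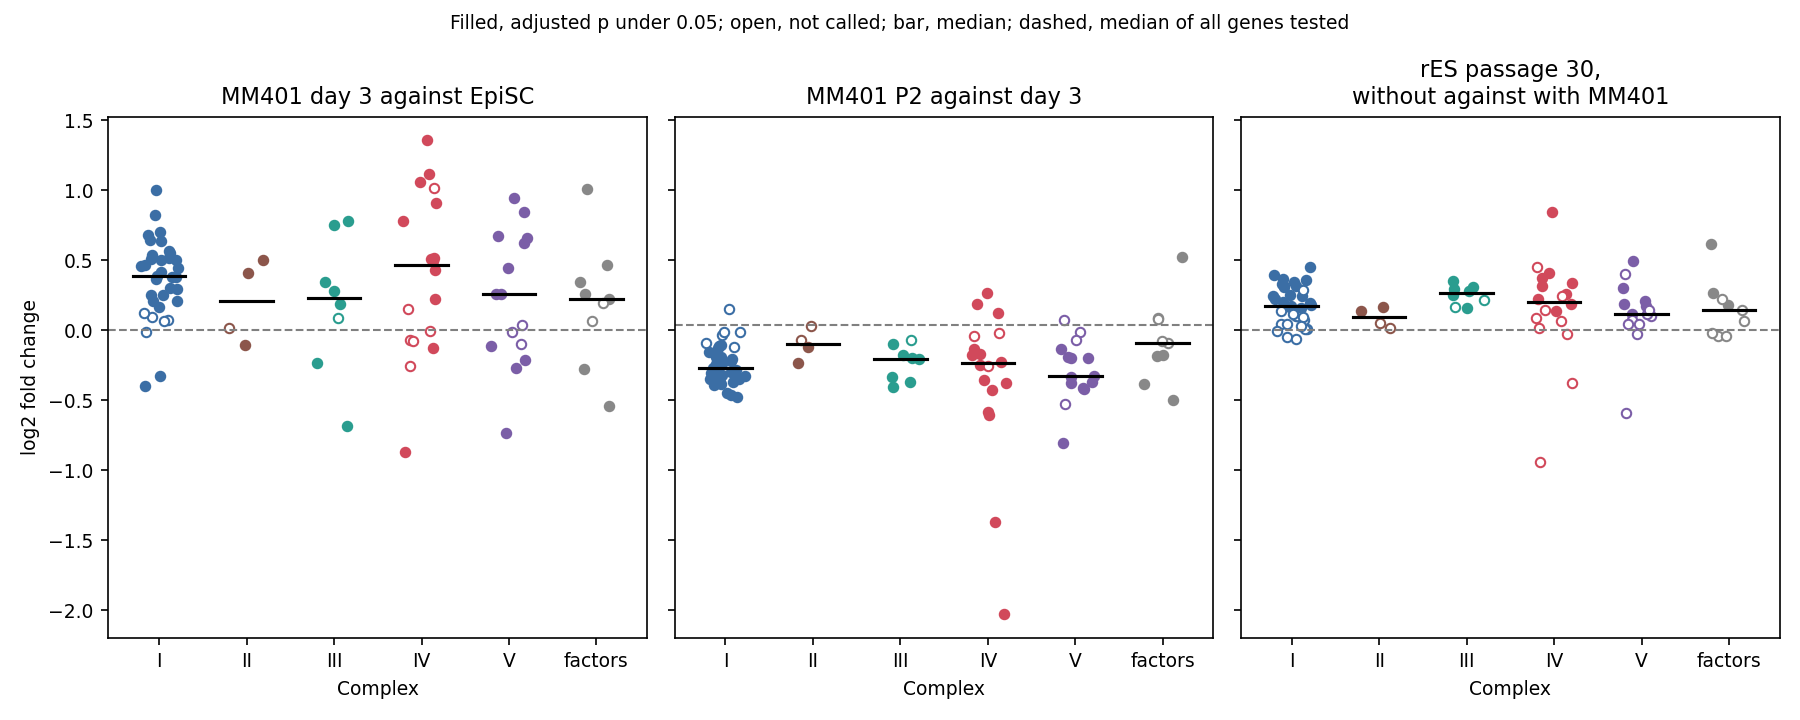
Log2 fold change (y axis) of each tested gene by complex (x axis) in 3 comparisons; filled points have an adjusted p under 0.05, open points do not, black bars are medians of a complex and dashed lines the median of all genes tested. Medians of all complexes lie above the dashed line on MM401 day 3 and in rES without MM401, and below it for MM401 P2 against day 3.

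Against EpiSC, MM401 P2 retained little of the rise: 42 genes (47.2%) were higher (background 42.1%) and 23 (25.8%) lower (33.8%, or 75.9% in either direction), with a median of 0.09 against 0.08 for all genes. With total counts 30 were higher and 34 lower, with a median of -0.06 against -0.07. Complex V had 4 genes up and 7 down, among them Atp5g3, from 364 and 359 CPM in EpiSC to 264 and 273 (-0.43 ± 0.04, adjusted p = 4.0e-14). Cox5a (223 and 233 CPM, 1.00 ± 0.04) and Ndufa12 (28 and 30.1 CPM, 0.73 ± 0.08) stayed above EpiSC in both libraries. Uqcrh (-0.76 ± 0.05) and Atp5c1 (-0.75 ± 0.04) stayed below. Day 3 and P2 are both compared with the same 2 EpiSC libraries, so their values against EpiSC share an error.

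ESC, the naive reference, differed from EpiSC in both directions, and the complexes differed in their balance. In ESC 36 respiratory chain genes (40.4%) were higher than in EpiSC (background 37%) and 23 (25.8%) lower (37.5%, or 74.5% in either direction), with a median of 0.08 against -0.00. With total counts 24 were higher and 37 lower (median -0.07 against -0.15). The fold change of the 89 genes had a Spearman rho of 0.31 with GC content. An offset on GC gave 38 higher and 24 lower (38.2% and 36.4% of all genes), with a median of 0.03 against 0.01 for all genes. The 10 markers of primitive endoderm were all called higher in ESC than in EpiSC (median 3.38), with 5130 and 5144 summed CPM against 948 and 952, and 4 of the 10 primed markers were higher and 5 lower. The part of these cells in the values of ESC was not tested. Complex IV was higher in 11 of 18 genes with 0 lower by edgeR (median 0.27), with 12 and 0 at an unadjusted p under 0.05 and 11 and 0 by DESeq2. Assembly and other factors, with Atp5s among them, were lower in 7 of 9 and higher in 1, Ndufaf2 (0.28 ± 0.11). The Ndufaf2 call was lost with total counts (0.13, adjusted p = 0.31), without EpiSC replicate 1 (0.37) and without ESC replicate 2 (0.21). Ndufaf4, an assembly factor of complex I, had 54 and 53.5 CPM in EpiSC and 31.6 and 33.3 in ESC (-0.73 ± 0.07, adjusted p = 3.7e-12, and -0.45 after an offset that removes the trend on GC content). Ndufaf6 (-0.59 ± 0.11) and Atp5sl, a factor for the membrane arm of complex I (-0.68 ± 0.07), were lower too. The catalytic pair of ATP synthase was higher, with Atp5b at 2518 and 2521 CPM in ESC (0.50 ± 0.03) and Atp5a1 at 1855 and 1838 (0.49 ± 0.03), while Atp5c1 was lower at 115 and 115 (-0.78 ± 0.04). Ndufv3, a small subunit beside the NADH site, was higher in ESC (104 and 107 CPM) than in EpiSC (60.4 and 61.4), a difference of 0.79 ± 0.05.

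In the reverted cells respiratory chain genes lay both above and below EpiSC. At passage 6, 33 (37.1%) were higher (background 38.7%) and 25 (28.1%) lower (35.1%, or 73.8% in either direction), with a median of 0.04 against 0.04. At passage 30, 37 (41.6%) were higher (background 38%) and 24 (27.0%) lower (38.3%, or 76.3% in either direction), with a median of 0.08 against -0.02. With total counts 20 were higher and 39 lower at passage 6 and 20 and 40 at passage 30 (medians -0.09 and -0.08, against -0.09 and -0.17 for all genes). Complex IV was higher in 10 of 18 genes (55.6%) at each passage, with 1 lower at passage 6 and 2 at passage 30. Within it, Cox7b rose from 79 and 78 CPM in EpiSC to 194 and 188 at passage 6 and 202 and 198 at passage 30 (1.28 ± 0.05 and 1.35 ± 0.05). Cox5a reached 226 and 215 CPM at passage 6 and 252 and 263 at passage 30 (0.95 ± 0.04 and 1.17 ± 0.04). In complex I, the accessory subunit Ndufa5 fell from 45.2 and 42.9 CPM to 31 and 29.3 at passage 6 and 26.5 and 23.2 at passage 30 (-0.55 ± 0.07 and -0.82 ± 0.07), while the core subunit Ndufv2 reached 158 and 154 CPM at passage 30 against 111 and 106 in EpiSC (0.53 ± 0.04). Of the factors 5 of 9 fell at each passage and 0 rose by edgeR, by DESeq2 and at an unadjusted p under 0.05, with Ndufaf4 at -0.80 ± 0.07 in each. Atp5e, the small epsilon subunit of the ATP synthase stalk, fell to 81 and 82.7 CPM at passage 6 from 116 and 114 (-0.49 ± 0.05).

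Compared with ESC, rES passage 30 had 29 genes (32.6%) higher (background 35.3%) and 32 (35.96%) lower (35.8%, or 71.1% in either direction), with a median of -0.03 against -0.01. The fold change of the 89 genes had a Spearman rho of -0.34 with GC content, and after an offset on GC 31 were higher and 24 lower, with a median of 0.01 against -0.03 for all genes. The offset on median transcript length also turned the sign of the median (0.0016). In the same comparison 19 of 20 feeder markers and 9 of 10 primitive endoderm markers were lower, and their part in these values was not tested. Complex I was lower in 17 of 35 genes and higher in 7, with Ndufa10 at 144 and 149 CPM in ESC and 94.8 and 96.8 in rES (-0.62 ± 0.04) and Ndufv1 at 203 and 204 against 146 and 141 (-0.51 ± 0.05). Complex III was higher in 5 of 8 genes and lower in 1, Uqcrq, which fell from 123 and 122 CPM to 82.2 and 76.9 (-0.62 ± 0.05). Atp5c1 was at 243 and 242 CPM in rES against 115 and 115 in ESC (1.07 ± 0.04, adjusted p = 9.1e-24). ESC, MM401 day 3 and MM401 P2 thus had 114 to 120 CPM of Atp5c1, and EpiSC and all rES libraries 192 to 287, without overlap.

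Withdrawal of MM401 at passage 30 gave the most one-sided difference. Without MM401, 46 of the 89 genes were higher (51.7%, background 10.4%) and 0 were lower (background 9.3%, or 19.7% in either direction) by edgeR. At an unadjusted p under 0.05, 57 were higher and 0 lower, and DESeq2 called 42 higher and 0 lower. The median log2 fold change was 0.17 against 0.00, and both libraries without MM401 lay above both libraries with it for 62 genes (background 27%). The median log2(CPM + 1) of the 89 genes was 6.35 and 6.51 in the 2 libraries without MM401 and 6.23 and 6.20 with it. The genes thus also shifted together between replicates, and their counts are not independent observations of 2 libraries per group. The differences were small, since 2 genes passed 1.5-fold, Ndufaf6 and Cox4i2 (background 0.492%, and 0.652% for falls past 1.5-fold). The count fell to 35 without rES passage 30 replicate 2, the library with the highest Rn45s share (2.0% against 0.548% in replicate 1), where 6.77% of all genes were higher, and to 38 without replicate 2 of the group without MM401. Among genes with at most 1% shared stretches 25 of 47 were higher, and among the others 21 of 42.

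All complexes took part: 20 of 35 genes of complex I were higher, 2 of 4 of complex II, 6 of 8 of complex III, 9 of 18 of complex IV, 6 of 15 of complex V and 3 of 9 factors. Complex III had the highest median (0.27) and complex II the lowest (0.10). Ndufb11, an X-linked accessory subunit of complex I, stood at 100 and 90.2 CPM with MM401 and 129 and 132 without (0.45 ± 0.05, adjusted p = 6.6e-09). Cox7a2 stood at 142 and 147 CPM with and 194 and 188 without (0.40 ± 0.04, adjusted p = 1.5e-09). Atp5h, an outer stalk subunit of ATP synthase, went from 26.2 and 27.3 CPM to 36.4 and 38.9 (0.50 ± 0.07). Ndufa2 went from 60.2 and 57.2 CPM to 76.1 and 78.4 (0.39 ± 0.05), and Uqcrh from 106 and 107 to 129 and 143 (0.35 ± 0.05). None of these pairs of groups overlapped. The assembly factor Ndufaf6 had the largest rise among genes of at least 10 CPM, from 15.7 and 15.8 CPM to 24.3 and 23.9 (0.61 ± 0.10, adjusted p = 7.4e-06). Cox5a, at 252 and 263 CPM with and 260 and 259 without MM401, was not called (0.01 ± 0.04).

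Transcript length moved with this comparison. Over 16089 genes the log2 fold change without MM401 against with it had a Spearman rho of -0.24 with transcript length, so that genes under 0.75 kb had a median of 0.05 and genes over 3 kb one of -0.07. Within the class under 0.75 kb, 24 of 49 respiratory chain genes were higher (median 0.18), against 14.7% of the 1502 other genes in that class (median 0.04). In the class from 0.75 to 1.5 kb, 19 of 33 were higher (median 0.17), against 16.7% of 3652 others (median 0.06). After an offset that removes the trend on median transcript length from each library, 28 of 89 were higher and 0 lower (median 0.10), against 9.14% and 8.28% of all genes. With the longest transcript as the length, 24 were higher and 2 lower, Ndufa3 and Cox5a (median 0.07, against 8.55% and 6.71% of all genes). Cox7a2, Ndufa2, Uqcrh and Cox6a1 kept their calls with the longest transcript, at 0.26, 0.25, 0.21 and 0.19. The count was thus lower under both offsets, at 31.5% and 27.0% of the 89 genes. On MM401 day 3, where rho was -0.11, the length offset gave 56 higher and 15 lower (median 0.28).

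**Figure D4:**
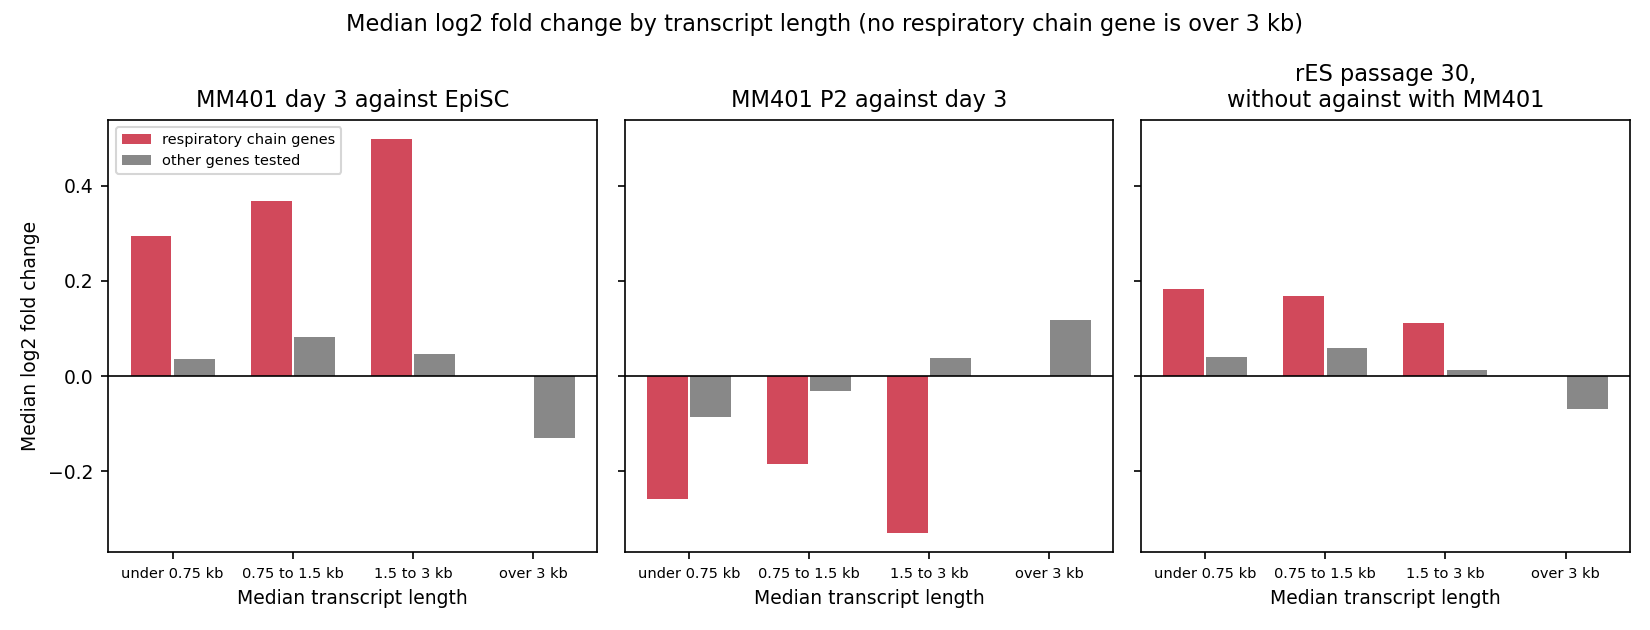
Median log2 fold change (y axis) by class of median transcript length (x axis) for respiratory chain genes (red) and all other genes tested (grey) in 3 comparisons; no respiratory chain gene is over 3 kb. Within each class, the red bar is above the grey one on MM401 day 3 and without MM401, and below it for MM401 P2 against day 3.

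Other short, abundant transcripts were read beside them. Of 83 cytosolic ribosomal protein genes 20 were higher without MM401 and 5 lower (median 0.07), where 10.4% and 9.3% of all genes were so. Of 77 mitochondrial ribosomal protein genes 30 were higher and 0 lower by edgeR (median 0.14), with 41 and 1 at an unadjusted p under 0.05 and 23 and 0 by DESeq2. Whether these lists differ from the respiratory chain genes was not tested. For MM401 P2 against day 3, cytosolic ribosomal protein genes fell in 69 of 83 cases (median -0.39). Mitochondrial ones fell in 63 of 77 (median -0.29), next to the 65 of 89 respiratory chain genes and 33.3% of all genes. On MM401 day 3 against EpiSC, 48 of 83 cytosolic ones rose and 13 fell (median 0.22). Of 77 mitochondrial ones 40 rose and 19 fell (median 0.14), next to 58 and 13 of 89. Of all genes 38.7% rose and 37.9% fell.

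Since many of these genes moved together without MM401, their promoters were searched for 3 motifs known from respiratory genes, on both strands, in the 300 bases from 250 before to 50 after each gene start (RefSeq, GRCm38.p6, 76 of the 92 genes matched). The palindromic NRF1 motif, in capitals in the Cox6a1 sequence, was found in 7 of 76 (9.21%), against 0.977% of 27025 promoters. The ETS motif CCGGAAG, which GABPA is known to bind, was found in 16 (21.1% against 9.12%), and the YY1 motif AAGATGG in 11 (14.5% against 6.48%). Among genes higher without MM401, 3 of 36 held the NRF1 motif, 9 of 36 the ETS motif and 4 of 36 the YY1 motif, next to 4, 7 and 7 of the 38 other tested genes. These shares were not tested, and a match is not shown to be a bound site. Shown are promoters of 3 genes that rose without MM401, 1 for each motif, in the direction of the gene and with the motif in capitals.
Cox6a1 (chr5:115348909-115349208, minus strand, NRF1 first, then ETS reversed): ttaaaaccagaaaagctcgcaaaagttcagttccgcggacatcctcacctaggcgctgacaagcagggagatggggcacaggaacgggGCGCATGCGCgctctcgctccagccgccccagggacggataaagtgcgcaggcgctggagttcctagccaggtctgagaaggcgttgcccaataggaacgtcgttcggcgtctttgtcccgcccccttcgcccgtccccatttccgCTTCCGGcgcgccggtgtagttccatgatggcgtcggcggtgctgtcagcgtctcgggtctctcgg
Uqcrh (chr4:116075021-116075320, minus strand, ETS reversed): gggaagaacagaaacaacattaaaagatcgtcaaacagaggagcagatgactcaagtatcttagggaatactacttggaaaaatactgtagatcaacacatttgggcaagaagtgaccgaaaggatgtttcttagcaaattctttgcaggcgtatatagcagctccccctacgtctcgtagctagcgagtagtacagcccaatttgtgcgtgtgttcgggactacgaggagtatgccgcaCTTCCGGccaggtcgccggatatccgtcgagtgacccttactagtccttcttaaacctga
Ndufs4 (chr13:114388045-114388344, minus strand, YY1): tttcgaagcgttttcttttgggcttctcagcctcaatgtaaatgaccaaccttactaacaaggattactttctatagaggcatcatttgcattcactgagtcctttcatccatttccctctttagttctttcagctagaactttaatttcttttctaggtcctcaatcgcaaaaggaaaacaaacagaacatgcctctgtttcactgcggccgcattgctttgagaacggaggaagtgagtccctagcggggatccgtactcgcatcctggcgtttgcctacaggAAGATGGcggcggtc
Without MM401, Cox6a1 rose from 205 and 187 CPM to 250.4 and 245 (0.34 ± 0.04), and Ndufs4, an accessory subunit of complex I, from 68.9 and 69.6 to 81.4 and 90.2 (0.31 ± 0.06).

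Several complex IV subunits have a second gene that is known for use in particular tissues, and these pairs held some of the largest fold changes. On MM401 day 3 against EpiSC the largest was that of Cox5a, which is in no such pair. Cox7a1, the form of heart and skeletal muscle, was at 9.36 and 9.47 CPM in ESC, 9.34 and 7.88 in EpiSC, 17.7 and 18.2 on MM401 day 3 and 11.6 and 11.9 in MM401 P2. In rES it was at 34.2 and 31.6 CPM at passage 6, 34.9 and 36.4 at passage 30 and 32.2 and 37.7 without MM401. All 6 rES libraries lay above all 8 others, and passage 30 exceeded ESC by 1.92 ± 0.10 (adjusted p = 1.9e-20). The share of Cox7a1 in the counts of Cox7a1 and the common form Cox7a2 was 6.01% to 6.92% in ESC and EpiSC and 19.6% to 20.2% in rES with MM401 (95% Wilson intervals 5.24% to 7.88% and 18.3% to 21.6%, counting error only). Without MM401 it was 14.2% and 16.7%, while Cox7a1 itself was not called (-0.03 ± 0.08) and Cox7a2 rose.

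Ndufa4l2 and Cox4i2 are known as hypoxia-responsive partners of Ndufa4 and Cox4i1 in complex IV. Ndufa4l2 stood at 29.9 and 27.9 CPM in ESC, 7.51 and 5.99 in EpiSC, 6.79 and 8.21 on MM401 day 3 and 1.79 and 1.88 in MM401 P2. It was between 31.2 and 38.2 CPM in the 6 rES libraries. It was thus high in ESC and rES, low in EpiSC and the MM401 groups, and lowest in P2, where it fell by 2.03 ± 0.11 on the log2 scale from day 3. Against EpiSC it was higher by 2.10 ± 0.11 in ESC and 2.26 ± 0.11 in rES passage 30, and ESC and rES passage 30 were not called different (0.16 ± 0.09, adjusted p = 0.12). Ndufa4 itself stayed between 119 and 182 CPM in all libraries. Cox4i2 had few counts, with 36 to 41 per library in ESC, 10 to 19 in EpiSC and 27 to 86 in rES. It was higher than in EpiSC in ESC (1.59 ± 0.40) and rES passage 6 (2.53 ± 0.37), and its rise without MM401 (0.84 ± 0.30, adjusted p = 0.045) fell to 0.41 (adjusted p = 0.51) without rES passage 30 replicate 2. That call was also lost without either library grown without MM401 (adjusted p = 0.19 and 0.12) and under both length offsets (0.075 and 0.11). It never exceeded 1.22% of the counts of Cox4i1 and Cox4i2.

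Forms known from testis moved in other directions. Cox6b2 was at 50.4 and 52.1 CPM in EpiSC, 95.3 and 96.9 on MM401 day 3 and 97.7 and 112 in MM401 P2, and between 54.3 and 65.1 in ESC and rES. Its rise was 0.91 ± 0.06 on day 3 and 1.03 ± 0.06 in P2, and its share of Cox6b1 and Cox6b2 counts went from 26.9% and 27.1% in EpiSC to 45.3% and 48.0% in P2. Cox7b2 had 2.72 to 3.35 CPM in ESC and EpiSC and 0.91 to 1.71 in all other groups, and it fell by 1.70 ± 0.28 on the log2 scale at rES passage 6. Cox8c had at most 0.531 CPM in any library. It was called higher in rES passage 30 than in ESC (1.81 ± 0.83, adjusted p = 0.0499), a call that was lost when any 1 library was left out (adjusted p = 0.088 to 0.22).

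**Figure D5:**
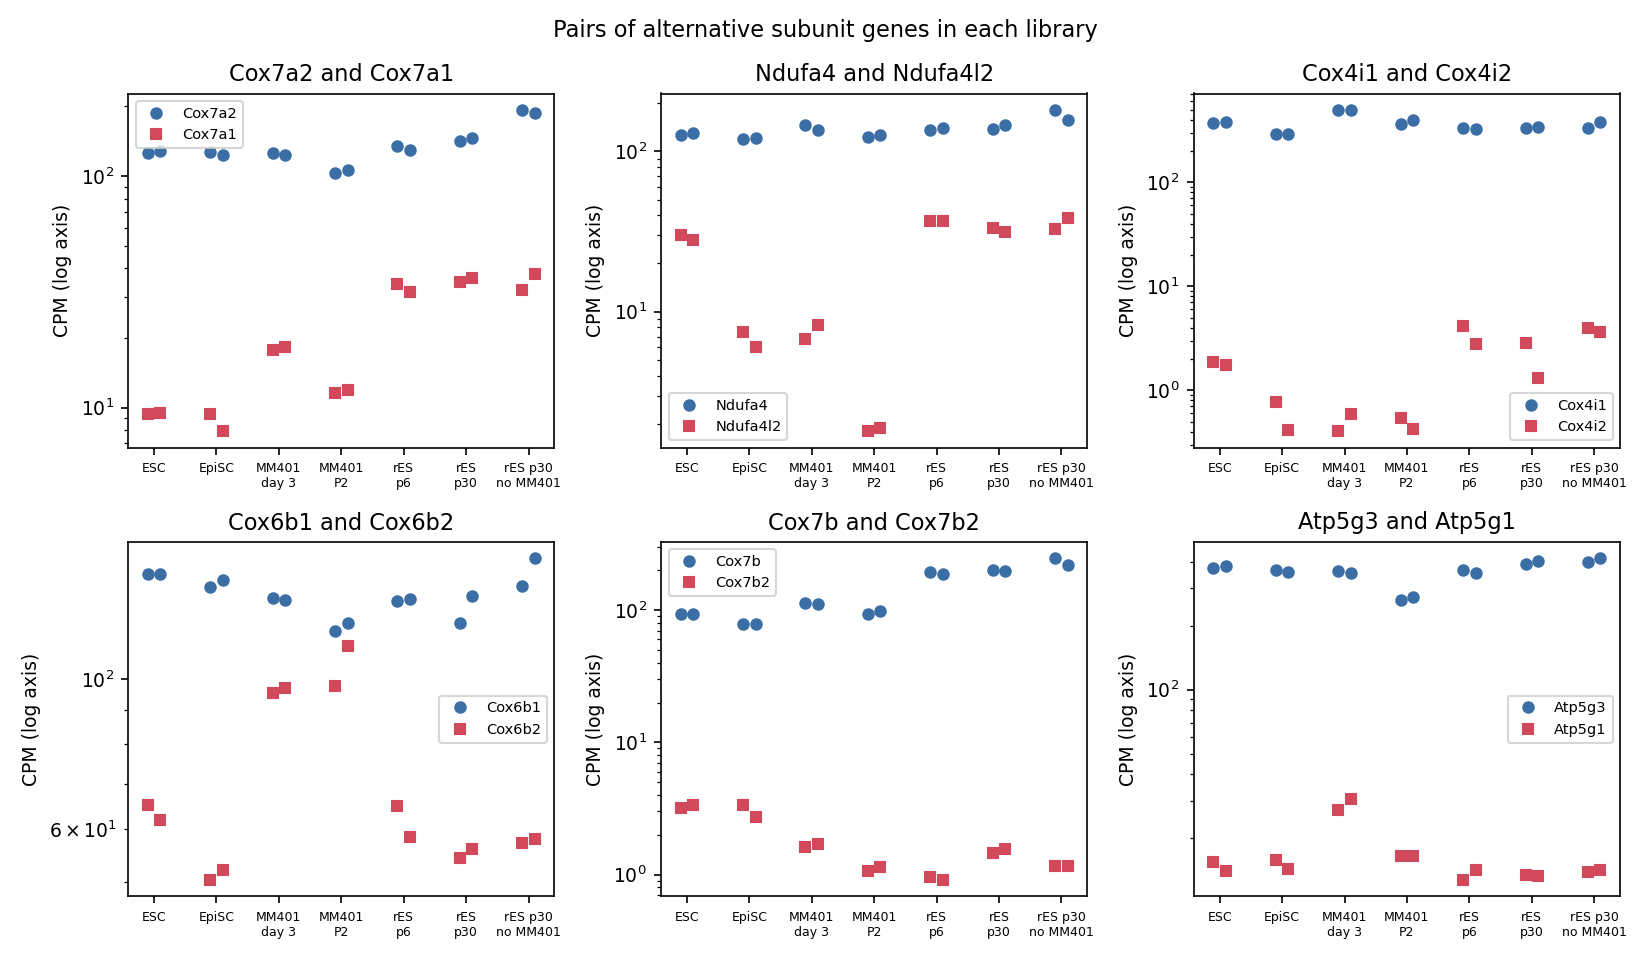
CPM (log axis) of 6 pairs of alternative subunit genes in each library, by group. Red squares are the less common form: Cox7a1, Ndufa4l2 and Cox4i2 have their highest group means in rES, with Ndufa4l2 also high in ESC, while Cox6b2 is highest in MM401 P2 and Atp5g1 on MM401 day 3.

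The X-linked members Ndufa1, Ndufb11 and Cox7b were higher in ESC, on MM401 day 3 and in both rES passages than in EpiSC (3 of 3 each time), and 2 of 3 were higher in MM401 P2. With total counts 1 of these calls was lost in each of the first 4 comparisons: Cox7b in ESC (adjusted p = 0.071), Ndufa1 on day 3 (0.19) and Ndufb11 at passages 6 and 30 (0.36 and 0.16). Ndufa1 stood at 52.7 and 53.8 CPM in EpiSC and 84.6 and 79.6 in ESC (0.63 ± 0.05), and at 76.3 and 71.5 in rES passage 30 (0.47 ± 0.05). Xist, the RNA of the inactive X chromosome, was at 620.3 and 624 CPM in EpiSC and between 30.2 and 133 in all other groups. Of 606 X-linked genes tested, 182 were higher and 285 lower in ESC than in EpiSC (median -0.23), and 326 higher and 161 lower in rES passage 30 (median 0.37). On MM401 day 3, 196 were higher and 308 lower (median -0.28), in MM401 P2 235 and 257 (median -0.09), and at rES passage 6 313 and 155 (median 0.34). The part of X dosage in the values of these genes was not tested.

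Genes that feed or build the chain were read beside it. Of 36 assembly factors outside the naming rule 18 were lower and 4 higher in ESC than in EpiSC (37.5% and 37% of all genes), and 19 lower and 9 higher in rES passage 30 (38.3% and 38% of all genes), next to the low Ndufaf genes. Tmem70, which assists the assembly of ATP synthase, had a mean of 56.1 CPM in EpiSC and 18.6 in ESC (-1.60 ± 0.07), and Atpaf2, which assembles its head, 57.5 in EpiSC and 20.3 in rES passage 30 (-1.50 ± 0.08). On MM401 day 3 the citric acid cycle and pyruvate entry genes rose in 15 of 18 cases and fell in 1 (median 0.36, where 38.7% and 37.9% of all genes did so), led by Pdhb (1.06 ± 0.04) and Sucla2 (1.01 ± 0.04). Electron carriers rose in 10 of 17 and fell in 5 in the same comparison, with Etfb, which passes electrons from fatty acid oxidation, from 112 to 236 CPM (1.08 ± 0.05). Cyct, the testis cytochrome c, was at a mean of 10.1 CPM in EpiSC, 3.2 in MM401 P2 and 37.0 in rES passage 30 (1.88 ± 0.10 against EpiSC). Of 16 nuclear regulators of respiratory genes, 9 were higher and 4 lower in ESC than in EpiSC, and 7 higher and 1 lower in rES passage 30. Among them Esrrb, which is also on the list of naive markers, had 316 CPM in EpiSC and 940.0 in ESC (1.57 ± 0.03). Gabpa, the ETS factor named above, had 115 in EpiSC and 239 in rES passage 30 (1.05 ± 0.04). Without MM401, where 10.4% of all genes were higher and 9.3% lower, 4 of these regulators were higher and 5 lower, Myc falling from 56.7 to 40.9 CPM (-0.47 ± 0.06), while 10 of the 36 outside assembly factors were higher and 0 lower by edgeR (17 and 0 at an unadjusted p under 0.05, 7 and 0 by DESeq2), led by Sdhaf1 (0.61 ± 0.10).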

How the data were processed

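RNA of whole cells was sequenced (TruSeq, single-end, per the labels' protocols), and the values used are the raw counts per gene symbol that the authors deposited. TopHat2, Subread, DESeq and mm9 appear in the submitters' processing notes without versions, roles or order, and neither strand nor the counting of reads with several matches is stated. The table holds 2 more columns that no label matches, which were left out. Transcript lengths, GC content and shared 50-base stretches are from GENCODE M21, matched by symbol (23605 symbols, 98.3%), in place of an mm9 annotation. After filterByExpr and TMM scaling, all 14 libraries entered 1 edgeR 4.0.16 model (R 4.3.3, quasi-likelihood, robust), two-sided, with Benjamini-Hochberg adjustment over the 16247 genes of a comparison and a threshold of 0.05. SE is the absolute log2 fold change over the square root of F, and p-values reflect the spread among these libraries alone. Length and GC offsets subtract a lowess trend (span 0.5) from each library. Named genes are up to 5 called genes with the largest rise and 5 with the largest fall at 10 CPM or more, isoform groups, core subunits, the extremes of each complex per kilobase, and called genes of outside lists. Ndufs8, Ndufa9, Ndufs4, Uqcrq, Atp5d and Atp5e on day 3, the Ndufa3 and Cox5a falls under an offset, and Pdhb, Sucla2, Etfb, Cyct, Tmem70, Atpaf2, Esrrb, Gabpa, Myc and Sdhaf1 were picked after their values were seen where that rule does not name them. The members, lists and comparisons were chosen with earlier results of these data known. Alternatives changed 1 choice at a time: size factors (RLE), total counts, the filter, the tool (DESeq2 1.42.0), the libraries fitted, depth (thinning), a replicate block, single libraries, and offsets. Values of 1 gene are not reported here, and it enters only counts, medians, sums and unlabelled points. The scripts were tested on simulated data.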

Additional observations from a re-analysis of the deposited data

Results flagged for a closer look

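Ndufa9, an accessory subunit of complex I, was called in opposite directions in the MM401 groups. It stood at 120.5 and 117 CPM in EpiSC, 143 and 140 on MM401 day 3 and 105 and 111 in MM401 P2, with log2 fold changes against EpiSC of 0.25 on day 3 and -0.14 in P2. The rise on day 3 rests on the scaling, since with total counts it was 0.08 and not called (adjusted p = 0.074), while the P2 value became -0.28. Without EpiSC replicate 1 the P2 value was -0.12 and not called (adjusted p = 0.0503). The test of the difference itself gave -0.39 ± 0.04 (edgeR, adjusted p = 8.0e-12), with both P2 libraries below both day 3 libraries, and with total counts -0.36 (adjusted p = 1.6e-10). P2 also held more feeder marker RNA, and its part in this value was not tested.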

How the results depend on the processing

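Total counts moved the medians against EpiSC to -0.0731 (ESC), 0.172 (MM401 day 3), -0.0607 (MM401 P2), -0.0902 (rES passage 6) and -0.0785 (rES passage 30), and the counts to 37 lower in ESC, 22 lower on MM401 day 3, 20 higher and 39 lower at passage 6, and 20 higher and 40 lower at passage 30. By construction this setting leaves the EpiSC factor out, and the distance to the median of all genes did not move by over 0.01. It also turned the sign of Sdhb in ESC (-0.0137), of Ndufv1 at passage 6 (-0.00508) and of Atp5g3 and Sdha at passage 30 (-0.018 and -0.0592). The GC offset turned Ndufa4 in rES passage 30 against ESC (-0.0556). The offset on the longest transcript, added after the data were seen, gave a median of 0.27 on MM401 day 3, and 24 higher, 2 lower, a median of 0.0703 and a turned Cox8a (-0.00748) without MM401, where the offset on the median length gave 28 higher. The cause of these offsets' effects was not tested. With each library left out in turn, the genes higher without MM401 numbered 35 to 48, those higher on MM401 day 3 56 to 59, those lower in P2 against day 3 60 to 67, and those higher in rES passage 30 against ESC 23 to 27. Deviations of libraries with the same replicate number had correlations of -0.02 to 0.04 over all genes tested. No pairing by number was thus seen, though a correlation over all genes cannot exclude one in some genes. With the replicate block 46 genes were higher without MM401, and 27 in place of 29 in rES passage 30 against ESC, where Cox8c lost its call (adjusted p = 0.052). In genes of few counts (Cox8c, Atp5g2, Cox4i2), calls rest on single libraries, and the Atp5g2 rise on day 3 (0.66) was lost under 10 of its alternatives.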
